A study of Mus musculus with 2 samples.

Results

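Nkx2-5, Hand1, Hand2, Isl1, Hopx, Shox2, Meis1 and Meis2 encode transcription factors of the heart fields, of left-right patterning and of the pacemaker region, with 2 MEIS proteins that work beside PBX factors. The 8 genes were taken by symbol from the 43346 Ensembl genes of the deposited gene tables, and their 46 transcript models from the transcript tables. The tissue was heart from healthy embryos of the mouse strain B6NCrl at 12.5 days of gestation, with male and female embryos pooled. Both libraries, labelled biological replicates 1 and 2, were made from 10 ng of total RNA longer than 200 nucleotides. There is 1 group, so no condition could be compared and no test between groups exists. Whole hearts were used, so for a gene active in a small region a low level cannot be told apart between few expressing cells and little RNA per cell.

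In the early heart, NKX2-5 is a homeodomain protein that acts with GATA4 and TBX5 on genes of working muscle. HAND1 and HAND2 are basic helix-loop-helix proteins that bind DNA as dimers and are needed for ventricle growth. ISL1, a LIM homeodomain protein, marks the second heart field and later the sinoatrial node, where SHOX2 holds back the working muscle program. HOPX is a small homeodomain-like protein that does not bind DNA itself and restrains serum response factor. MEIS1 and MEIS2 belong to the TALE class of homeodomain proteins and bind DNA with PBX and HOX partners.

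All 8 genes were detected, which here means 1 TPM or more in both libraries. TPM is a level per unit of transcript length, scaled to the same total in each library. The same held for 57.5% of 21461 nuclear protein-coding genes. The median level of the 8 genes was 28.8 TPM, beside 18.9 TPM over the 12344 detected protein-coding genes. From the highest to the lowest, the order by mean was Nkx2-5, Meis1, Hand1, Meis2, Hand2, Hopx, Shox2 and Isl1. Of the 7 pairs of neighbours in this order, 6 had values that did not overlap between the genes, and Shox2 and Isl1 overlapped. The span from Nkx2-5 to Isl1 was 34.6-fold in replicate 1 and 41.0-fold in replicate 2.

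**Figure D1:**
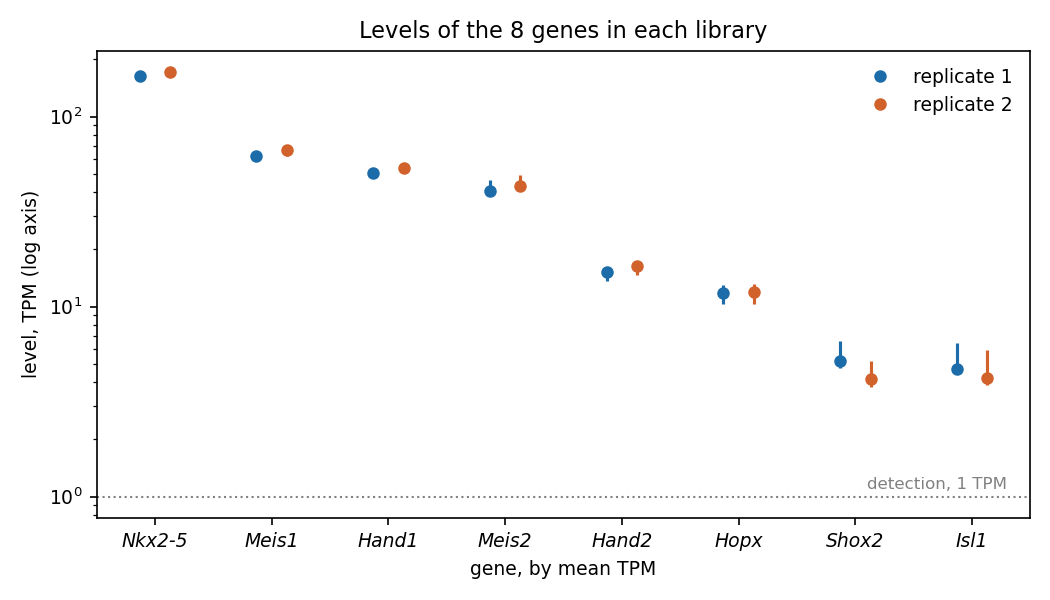
Level of each of the 8 genes in both libraries, in TPM on a log axis. Points are the deposited values of replicates 1 and 2, vertical lines are the authors' interval for the posterior estimate (level not stated), and the dotted line is 1 TPM. Nkx2-5 lies at 164 and 172 TPM, above every other gene, and Shox2 and Isl1 lie together between 4.15 and 5.15 TPM.

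The deposited reads summed to 33480066 and 30665239 over Ensembl genes, and the 8 genes held 0.0491% and 0.0511% of them. Heart muscle markers fitted the label: 8 of 8 were detected, led by Actc1, cardiac actin, at 9860 and 9751 TPM. Of other tissues that use these factors, 0 of 6 limb markers, 2 of 11 autonomic neuron markers (Elavl4 and Stmn2) and 2 of 10 foregut, lung and pharynx markers (Wnt2 and Tg) were detected. The autonomic defining gene Phox2a was at 0.08 TPM or less in both libraries, and that list summed to 6.71 and 7.04 TPM. All 8 hepatocyte markers were lower in replicate 2, and their sum was 242 TPM in replicate 1 and 67.9 TPM in replicate 2. Of the 10 foregut, lung and pharynx markers, 7 were higher in replicate 2 and the sum was 10.5 and 13.2 TPM. Among them Nkx2-1 had 0.1 and 1.07 TPM, from 5 and 49 reads, and Sftpc, a lung surfactant gene, was listed at 0 and had 0.93 TPM. The part of these differences in the levels below was not tested.

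Nkx2-5 (ENSMUSG00000015579) has 1 deposited transcript model, on the minus strand at chr17:26838664-26841565 of GRCm38, with a coding sequence of 954 bases. It stood at 164 TPM in replicate 1 and 172 TPM in replicate 2, from 5510 and 5235 estimated reads. The mean was 168 ± 5.9 TPM (SD, n = 2). This made it the highest of 209 genes recognised as homeobox genes by symbol, of which 51 were detected and whose median was 0.14 TPM. The next was Cux1, a cut-class repressor, at 65.8 and 69.0 TPM, and Meis1, Irx4 and Prrx2 followed.

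**Figure D2:**
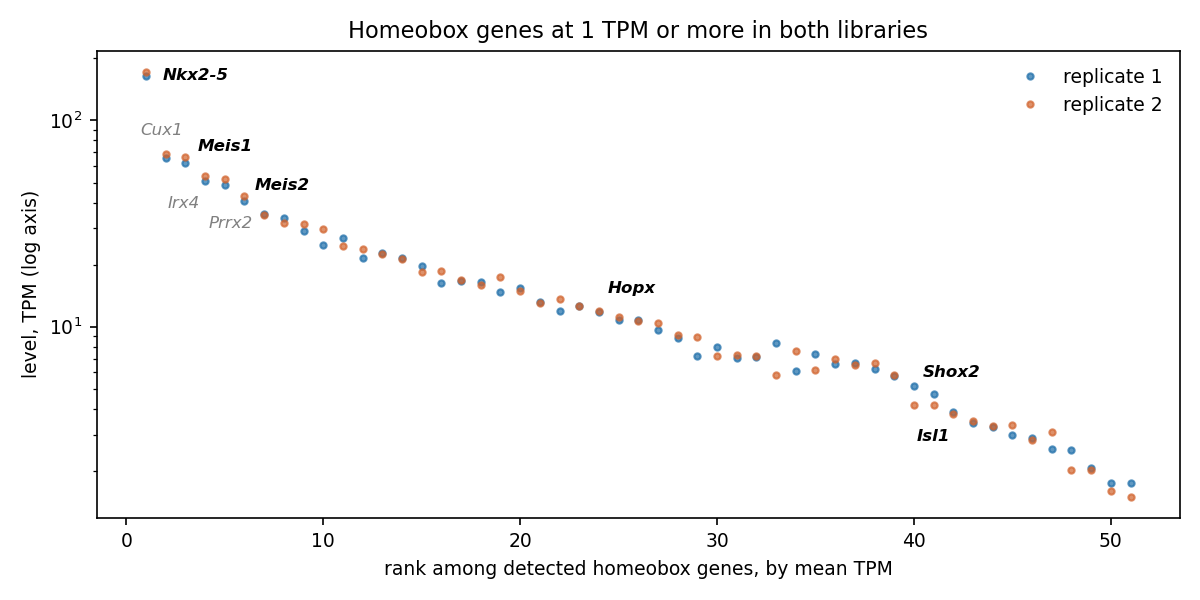
Levels of the 51 homeobox genes at 1 TPM or more in both libraries, ranked by mean TPM, on a log axis. Points are the values of replicates 1 and 2, bold names are genes described here and grey names are the others among the first 5. Nkx2-5 stands at rank 1, Meis1 at 3, Meis2 at 6, Hopx at 24, Shox2 at 40 and Isl1 at 41.

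Among 7 NK2-class genes only Nkx2-5 was detected. Nkx2-6, its pharyngeal paralog, was at 0.25 and 0.23 TPM. Nkx2-1, the thyroid and lung factor, was at 0.1 and 1.07 TPM. The remaining 4 were at 0.36 TPM or less in both libraries, and Nkx2-4 was listed at 0.

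All 10 genes listed for the NKX2-5 protein complex, Nkx2-5 among them, were detected. Gata4, the zinc finger partner, had 155 and 163 TPM, so that Nkx2-5 was 1.06-fold above it in replicate 1 and 1.05-fold in replicate 2. That difference was within 3 standard errors, the rule used here to call a pair, where the standard error comes from the spread between libraries of genes of like level. Tbx20 had 92.8 and 87.5 TPM, and Gata6 62.6 and 60.9 TPM. Nkx2-5 was 5.8 ± 0.109-fold above Tbx5 (SD, n = 2), the T-box partner at 28.6 and 29.3 TPM. The lowest of the list was Tbx2, a T-box repressor, at 2.65 and 2.6 TPM.

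Genes of working muscle listed for a link to NKX2-5 were also present, 11 of 11. Whether NKX2-5 raises or lowers each of them was not tested. Nppa, the atrial natriuretic peptide, had 4649 and 4839 TPM. Cited1, a transcriptional coregulator, had 761 and 841 TPM. Ankrd1, a titin-associated stress protein, had 429 and 416 TPM. The lowest was Bmp10, a growth factor of trabecular muscle, at 5.98 and 6.8 TPM.

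Hand1 (ENSMUSG00000037335, chr11:57828705-57832818, minus strand) had 50.7 TPM in replicate 1 and 53.9 TPM in replicate 2. Hand2 (ENSMUSG00000038193, chr8:57320983-57324633, plus strand) had 15.1 TPM in replicate 1 and 16.4 TPM in replicate 2. Hand1 was thus 3.35-fold above Hand2 in replicate 1 and 3.3-fold in replicate 2, a called pair. In the 12 genes of the HAND and TWIST class, 8 were detected. Tcf21, an epicardial factor of that class, was higher than Hand1, at 63.0 and 61.4 TPM, and Hand1 over Tcf21 was called lower (mean log2 ratio -0.25), although the call did not hold in replicate 2 taken alone, where the log2 ratio was -0.19. By reads Hand1 was higher, 2105 and 2018 against 1673 and 1475 for Tcf21, so this order depends on the division by length. Twist1, a mesenchymal factor, was at 13.7 and 13.1 TPM and its difference from Hand2 was not called.

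HAND proteins pair with E proteins, and ID proteins take those partners away. All 9 listed partners and inhibitors were detected. Id2 led with 344 and 348 TPM, ahead of Id3 with 262 and 261 TPM. Fhl2, a LIM-only protein that binds HAND1, had 167 and 165 TPM. The E proteins Tcf3, Tcf4 and Tcf12 had 70.5 and 73.2, 46.8 and 49.2, and 36.1 and 39.2 TPM.

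Hand1 reads fell on 2 transcript models with the same coding sequence of 648 bases but different starts. The model that starts at 57832147 (Hand1-201) had 26.1 and 24.7 TPM. The model that starts at 57832818 (Hand1-203) had 24.6 and 29.2 TPM. The first held 51.5% of the gene in replicate 1 and 45.8% in replicate 2, so the leading model changed between libraries. The authors' intervals of both models overlapped in each library.

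Hand2 has a single model with a coding sequence of 651 bases, and its neighbour on the other strand was more abundant. Hand2os1, a long noncoding RNA also known as Upperhand that is read away from Hand2, had 146 TPM in replicate 1 and 149 TPM in replicate 2. This was 9.68 and 9.14 times the TPM of Hand2, and 2.5 and 2.34 times its reads (1909 and 1748 against 764 and 747). The 8 Hand2os1 models counted under that gene all lie upstream of the Hand2 start, and 5 of them, with 63.1% and 65.8% of the TPM of Hand2os1, start within the 250 bases upstream of it. A further antisense model that crosses Hand2 itself was counted as another gene, with 9.26 and 7.12 TPM. Whether the libraries kept the strand was stated nowhere in the labels or headers, so where models overlap on opposite strands their reads may not be separable. The noncoding gene 5033428I22Rik, which starts 11135 bases downstream of the Hand2 start, had 11.3 and 11.1 TPM.

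The 250 bases upstream of the Hand2 start (RefSeq, GRCm38.p6, chr8:57320733-57320982, plus strand) are shown because both transcripts start around them. Capitals mark the 152 bases between the nearest Hand2os1 start and the Hand2 start.
Hand2 upstream: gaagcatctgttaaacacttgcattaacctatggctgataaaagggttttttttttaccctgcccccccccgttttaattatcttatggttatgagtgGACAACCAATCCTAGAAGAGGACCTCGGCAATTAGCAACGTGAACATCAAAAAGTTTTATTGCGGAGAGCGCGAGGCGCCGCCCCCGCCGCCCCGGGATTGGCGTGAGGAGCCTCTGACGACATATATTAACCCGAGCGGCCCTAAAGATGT
The letters in lower case hold all 5 Hand2os1 starts of that window.

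Isl1 (ENSMUSG00000042258, chr13:116298281-116309689, minus strand) had 4.72 TPM in replicate 1 and 4.19 TPM in replicate 2, from 246 and 194 reads. Its mean of deposited TPM was the lowest of the 8, but Shox2 was lower in replicate 2. Nkx2-5 was 34.6-fold and 41.0-fold higher. Of 12 LIM homeobox genes 2 were detected, Isl1 and Lmx1a, the latter at 2.89 and 2.82 TPM. Isl2, the closest paralog, stayed under 1 TPM at 0.47 and 0.83 TPM. The cofactors through which LIM homeodomain proteins act were all present, 8 of 8. Ldb1, the bridging factor that holds LIM complexes together, had 70.8 and 69.7 TPM and was 15.8 ± 1.17-fold above Isl1 (SD, n = 2). Ssbp3, which stabilises LDB1, led the list with 81.0 and 84.1 TPM.

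Of 11 second heart field genes, Isl1 included, 6 were detected. Mef2c, a muscle factor, had 38.7 and 41.0 TPM, Wnt11, a secreted signal, 21.5 and 24.7 TPM, and Foxc2, a forkhead factor, 17.0 and 16.8 TPM. Tbx1 and Fgf10, a regulator and a growth factor of that field, were at 0.52 TPM or less, and Fgf8 was listed at 0.

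Most Isl1 signal lay on the full form. The model Isl1-201, with a coding sequence of 1047 bases, held 82.8% of the gene in replicate 1 and 79.0% in replicate 2. Isl1-202, with 978 coding bases, held 14.8% and 16.7%, but on 18.1 and 16.4 reads. It lacks 69 bases, or 23 codons, at chr13:116301710-116301778, and corresponds to the form known as Isl1 beta. Models with the segment made up 84.8% and 82.5% of the TPM that could be assigned. The authors' posterior means put a smaller share of the gene on Isl1-201, 68.3% and 64.0%. They did not put a larger one on Isl1-202, which had 13.6% and 14.0%. The noncoding models Isl1-203 and Isl1-204, at 0 TPM in both libraries, had 9.87% and 10.1%, and 5.59% and 7.44%. By read share Isl1-202 held 7.35% and 8.43%. The optional segment, copied from the GENCODE M21 transcript and written in lower case throughout, reads as follows.
Isl1 optional segment: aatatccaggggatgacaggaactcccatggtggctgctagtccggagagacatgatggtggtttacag

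Shox2 (ENSMUSG00000027833, chr3:66971727-66981771, minus strand) had 5.15 TPM in replicate 1 and 4.15 TPM in replicate 2, from 309 and 232 reads. It was above Isl1 in replicate 1 and below it in replicate 2, and the pair was not called. Of the 16 sinoatrial and pacemaker genes listed, 15 were detected, with a median of 9.61 TPM over the list. Gjc1, connexin 45, led with 58.9 and 56.9 TPM. Tbx18 and Tbx3, which act in sinus node formation, were 3.53 ± 0.751-fold and 3.07 ± 0.55-fold above Shox2 (SD, n = 2). Tbx18 had 15.5 and 16.9 TPM and Tbx3 had 13.8 and 14.3 TPM. Hcn4, the pacemaker channel, was at 2.12 and 2.42 TPM.

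Among 12 paired-related homeobox genes 4 were detected. Prrx2 and Prrx1, mesenchymal factors, had 48.4 and 52.3 TPM and 6.13 and 7.63 TPM. Shox2 was called lower than Prrx1 (mean log2 ratio -0.55), but not in replicate 1 alone, where the log2 ratio was -0.25. Of the wider list of 11 left-right genes 5 were detected, and Nodal and Lefty2 were at 0.13 TPM or less.

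Shox2 had 5 models, and Shox2-203 held 89.3% and 82.9% of the TPM. By the authors' posterior means the share of Shox2-203 was smaller, 76.9% and 72.0%. The model Shox2-203 was the highest by either measure. Shox2-203 lacks 36 bases, or 12 codons, at chr3:66973908-66973943 that Shox2-201 has. Shox2-201, with the complete coding sequence of 993 bases, held 7.38% in replicate 1 and 17.1% in replicate 2, on 26.7 and 45.2 reads. The model Shox2-203 is annotated as incomplete at its coding start, so its full protein is not known from the annotation. The segment reads as follows.
Shox2 optional segment: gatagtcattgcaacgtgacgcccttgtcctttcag
Rsrc1, a splicing-related gene on the opposite strand whose first bases overlap the 5′ end of Shox2, had 21.3 and 23.7 TPM, 4.14 and 5.71 times the TPM of Shox2.

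Hopx (ENSMUSG00000059325, chr5:77086988-77115121, minus strand) had 11.8 TPM in replicate 1 and 11.9 TPM in replicate 2, from 308 and 277 reads. The mean was 11.9 ± 0.0707 TPM (SD, n = 2). Nkx2-5 was 14.1 ± 0.413-fold above it (SD, n = 2). All 3 listed protein partners were detected. Hdac2, the deacetylase that HOPX recruits, had 157 and 148 TPM. Srf, serum response factor, had 8.41 and 8.87 TPM, and Hopx was called above it by 1.37 ± 0.0435-fold (SD, n = 2), although the call did not hold in replicate 2 taken alone, where the log2 ratio was 0.42. Srf had more reads than Hopx, 794 and 757, so this order depends on the division by length.

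The TPM of Hopx was divided about equally between models of 2 annotated start regions, with the same coding sequence of 219 bases from each. The starts are those annotated for the models and were not measured. The distal start at 77115121 had 6.75 TPM in replicate 1 and 5.88 TPM in replicate 2. The proximal starts near 77095253 had 5.06 and 6.03 TPM. The distal start thus held 57.2% of the gene in replicate 1 and 49.4% in replicate 2, on 185 and 146 reads. The leading model changed between the libraries, as it did for Hand1. Of the 4 genes here that are at 10 TPM or more with more than 1 used model, Meis1 and Meis2 kept their leading model by TPM share and Hand1 and Hopx did not. Over 5983 such genes 94.3% kept it. The median share of the leading model in that set was 67.9%, while the leader held 51.5% and 54.2% of Hand1 and 57.2% and 50.6% of Hopx. The largest change in share between libraries was 5.67 points for Hand1 and 11.5 points for Hopx. In that set its median was 4.11 points and its 95th percentile 14.7 points, so the size of these changes does not set Hand1 and Hopx apart. For Hopx the change depends on the measure, since by read share the distal model Hopx-201 led in both libraries with 60.2% and 52.8%. Meis2 in turn changed its leading model when posterior means were used.

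The upstream sequences of the alternative Hopx starts are shown because reads were assigned to models of both (RefSeq, GRCm38.p6, minus strand, 250 bases each). The distal one is chr5:77115124-77115373 and the proximal one is chr5:77095268-77095517. Both lie upstream of RefSeq starts, which differ by some bases from the model starts. The proximal one includes the start of Hopx-202 at 77095277. Capitals mark AAGTG, the core letters that NK2 homeodomains bind, and a CArG box, the motif of serum response factor.
Hopx distal upstream: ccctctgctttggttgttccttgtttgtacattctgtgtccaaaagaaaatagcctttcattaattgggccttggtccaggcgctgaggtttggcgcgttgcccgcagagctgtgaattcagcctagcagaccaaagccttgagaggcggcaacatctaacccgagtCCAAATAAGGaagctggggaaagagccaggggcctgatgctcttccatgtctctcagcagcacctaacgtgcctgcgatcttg
Hopx proximal upstream: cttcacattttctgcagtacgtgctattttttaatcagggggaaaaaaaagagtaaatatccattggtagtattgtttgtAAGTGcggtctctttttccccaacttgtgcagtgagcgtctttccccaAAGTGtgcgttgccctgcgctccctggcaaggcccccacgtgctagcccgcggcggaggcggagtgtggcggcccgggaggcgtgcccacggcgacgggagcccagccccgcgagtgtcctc
The distal sequence holds 1 CArG box, whose first base lies 83 bases before the RefSeq start, and no AAGTG. The proximal sequence holds 2 AAGTG and no CArG box. Motifs were searched on both strands and the CArG box was chosen after the sequence was read. Over 32851 such windows of all genes, 40.7% hold AAGTG and 1.47% a CArG box. Among the 8 windows of the 7 matched genes, the CArG box is found in the distal Hopx window only. CANNTG, the E-box letters, occurs once in the proximal window and not in the distal one, beside 66.2% of all windows, and it does not overlap the marked motifs. AGATAA and TATAAA are in neither.

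**Figure D3:**
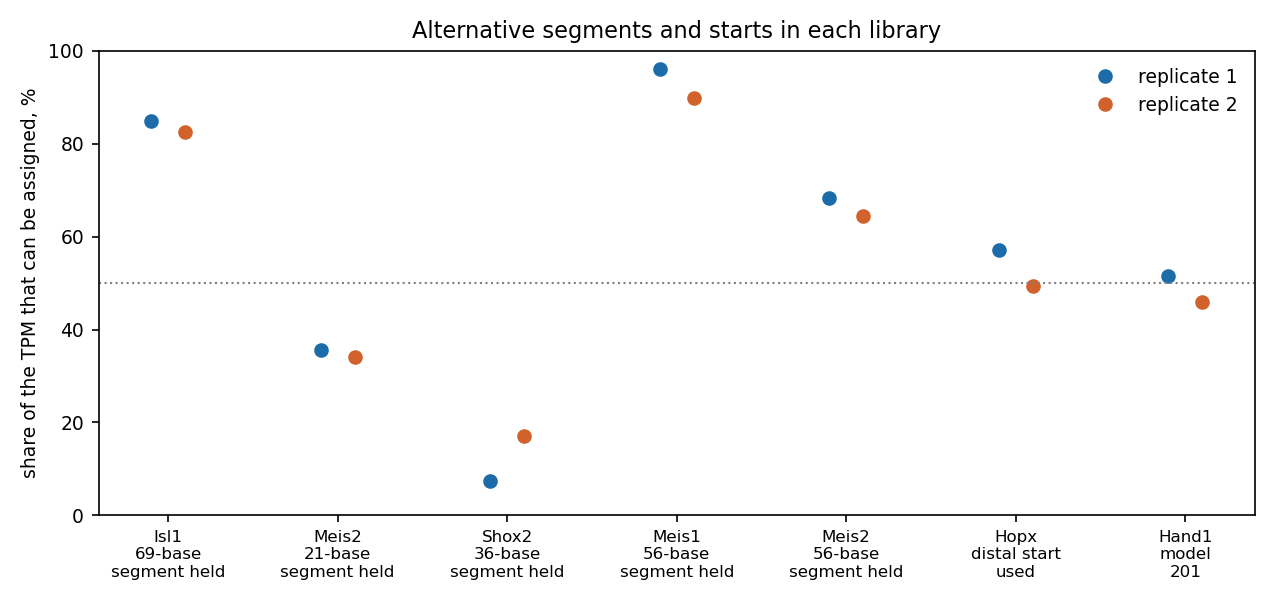
Share of alternative segments and starts in each library, as a percent of the TPM on models that could be assigned. Points are replicates 1 and 2, and the dotted line is 50%. The 56-base Meis1 segment is held in 96.0% and 89.9%, the 36-base Shox2 segment in 7.38% and 17.1%, and the Hopx and Hand1 values lie on both sides of the dotted line.

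Meis1 (ENSMUSG00000020160, chr11:18879817-19018985, minus strand) had 62.4 TPM in replicate 1 and 66.6 TPM in replicate 2. Meis2 (ENSMUSG00000027210, chr2:115863064-116065839, minus strand) had 40.8 TPM in replicate 1 and 43.0 TPM in replicate 2. Meis1 was called above Meis2, 1.53-fold in replicate 1 and 1.55-fold in replicate 2. Meis2 was in turn called above Meis3, the third paralog, at 14.8 and 17.4 TPM. Without division by length Meis2 passed Hand1, with 90.3 and 96.2 CPM (reads scaled to the library total) against 62.9 and 65.8. The deposited length, an average over models, was 3236 and 3310 bases for Meis2 and 1856 and 1851 bases for Hand1.

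The TALE class was broadly present, with 11 of 12 genes detected and a median of 18.8 TPM. Meis1 and Meis2 were its highest members, followed by the repressors Tgif2 (35.2 and 34.8 TPM) and Tgif1 (29.3 and 31.4 TPM). Pbx3, a partner of MEIS proteins, had 26.9 and 24.6 TPM. In contrast, of 11 HOX genes of the 3′ groups, which also pair with MEIS and PBX, only Hoxb2 was detected, at 3.25 and 3.3 TPM. Of 3 cell cycle inhibitors linked to MEIS1 in heart muscle, Cdkn1a had 43.1 and 40.6 TPM, Cdkn2b 1.44 and 2.21 TPM, and Cdkn2a was listed at 0.

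Meis1 and, to a smaller extent, Meis2 carried part of their signal on noncoding models. Protein-coding models held 58.6% of Meis1 in replicate 1 and 57.0% in replicate 2, and 74.5% and 72.9% of Meis2. By read share the genes were closer, with 68.5% and 67.0% for Meis1 and 74.0% and 69.9% for Meis2. By posterior means Meis1 had 58.4% and 56.3%, and Meis2 68.2% and 66.2%. The comparison set, by TPM share, was 5891 protein-coding genes at 10 TPM or more in both libraries with more than 1 used model. Their median was 91.2%, 13.7% of those genes had a lower share than Meis1, and 25.2% a lower share than Meis2. In Meis1 the processed transcript Meis1-203, which starts inside the gene at 19012002, held 24.7% and 21.9%, and retained-intron models held 13.5% and 14.7%. In Meis2 retained-intron models held 19.7% and 19.9%, most of it on Meis2-213 with 13.2% and 16.0%. Of the other 6 genes, 5 have coding models only in the annotation, so their share was fixed at 100%. Isl1 had 97.7% and 95.7% on coding models by TPM, and 81.9% and 78.1% by the authors' posterior means.

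**Figure D4:**
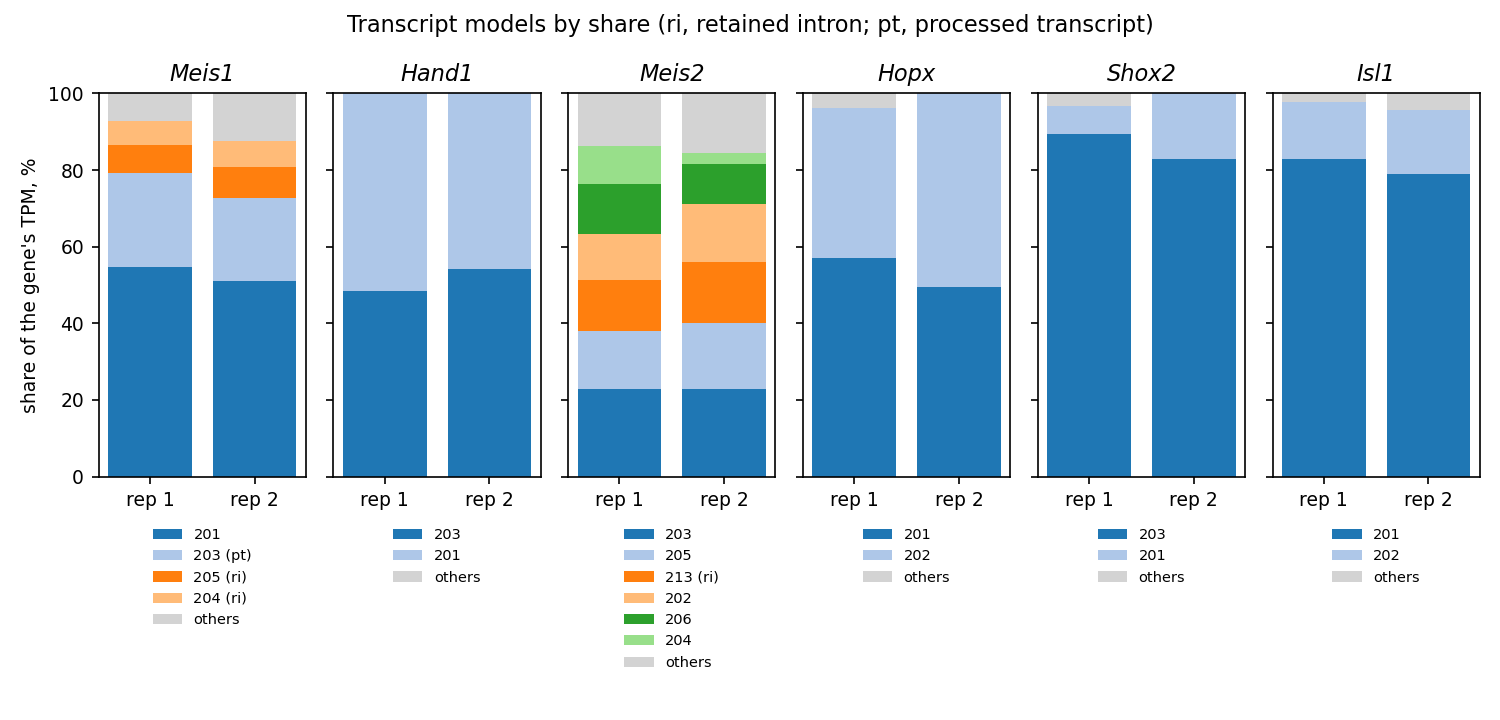
Share of each transcript model in the TPM of its gene, in percent, for the 6 genes with more than 1 model and for each library. Stacked bars show models with 5% or more in either library, grey is the rest, and each gene has its own key. Meis1-201 holds 54.6% and 51.0% of Meis1, and no model of Meis2 passes 22.9%.

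Antisense and neighbouring transcripts at both MEIS genes lay below the MEIS genes themselves. Gm16141, inside Meis1 on the other strand, had 8.57 and 10.7 TPM, and 2610001A08Rik and Gm37818, inside Meis1 on the same strand, had 1.93 and 3.84 TPM and 0.75 and 1.16 TPM. Beside the Meis2 start, 2700033N17Rik had 7.55 and 7.44 TPM and G630016G05Rik 0.3 and 0.55 TPM.

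MEIS proteins are made with alternative C-terminal ends, set by whether an exon that carries a stop codon is held or skipped. In both genes the last coding stretch of that exon is 56 bases, at chr11:18884027-18884082 for Meis1 and chr2:115866849-115866904 for Meis2. The stretches are shown because they fix the end of the protein, with capitals at the 3 bases that differ between the genes. They match at 53 of 56 bases, or 94.6%.
Meis1 stop exon: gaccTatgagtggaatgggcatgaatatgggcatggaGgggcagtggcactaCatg
Meis2 stop exon: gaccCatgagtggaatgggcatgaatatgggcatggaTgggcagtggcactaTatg
Models that hold the exon made up 96.0% of the assignable Meis1 TPM in replicate 1 and 89.9% in replicate 2. For Meis2 they made up 68.4% and 64.5%. Meis1 was therefore above Meis2 in both libraries, with no overlap. For Meis1 the held side includes the noncoding Meis1-203, and the assignable models were 82.6% and 81.1% of the gene. The Meis1 models that lack the exon had 2.07 and 5.48 TPM. Of these, Meis1-202 and Meis1-207 are typed as nonsense-mediated decay, and the coding Meis1-209 had only 0.06 and 1.23 TPM. For Meis2 the held side includes the noncoding Meis2-207 and Meis2-216. These shares are thus of RNA models, not of protein ends.

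The leading Meis2 model by TPM, Meis2-203 with 1410 coding bases, skips the exon and held 22.9% of the gene in each library. By read share the longer retained-intron model Meis2-213 led instead, with 22.6% and 26.9%. By posterior means Meis2-206, which holds the exon, led in replicate 1 with 18.1% against 17.3% for Meis2-203, and Meis2-203 led in replicate 2 with 16.3% against 14.4%. Meis2-205, with 1203 coding bases, holds it and made up 15.2% and 17.3%. Meis2-202 and Meis2-206 hold it as well, with 11.9% and 14.9%, and 13.2% and 10.6%. Meis2-204 was at 9.9% in replicate 1 and 2.74% in replicate 2. The authors' intervals of single Meis2 models were wide, for Meis2-203 from 4.35 to 10.4 TPM around a value of 9.33 TPM in replicate 1.

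Meis2 also has an optional stretch of 21 bases, or 7 codons, at chr2:115867359-115867379, at the start of the exon before the stop exon. It was held by 35.7% of the assignable TPM in replicate 1 and 34.2% in replicate 2. The segment reads as follows.
Meis2 optional segment: gttttcttcttgatccttcag
Its share was nearly the same in both libraries, with an SD of 1.05 points.

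The 8 genes were also compared between the libraries. Nkx2-5, Meis1, Hand1, Meis2 and Hand2 were higher in replicate 2 by log2 ratios of 0.07, 0.1, 0.09, 0.08 and 0.11. Hopx had 0.01. Isl1 and Shox2 were lower, at -0.17 and -0.3. None of the 8 passed 1.5-fold, beside 4.66% of 15154 genes with a mean of at least 20 reads. All 8 had more than 100 reads, and at a mean of at least 100 reads the share was 0.906%. With shares this low, 0 of 8 does not set these genes apart from others. Shox2 had the largest ratio, 1.33 times the robust SD of genes of like level, measured from a ratio of 0. Nkx2-5, Meis1 and Hand1 stood at 1.18, 1.16 and 1.09 times theirs, and the other genes stayed within 1 robust SD. The band of all genes also widens towards low levels, where Shox2 and Isl1 lie.

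**Figure D5:**
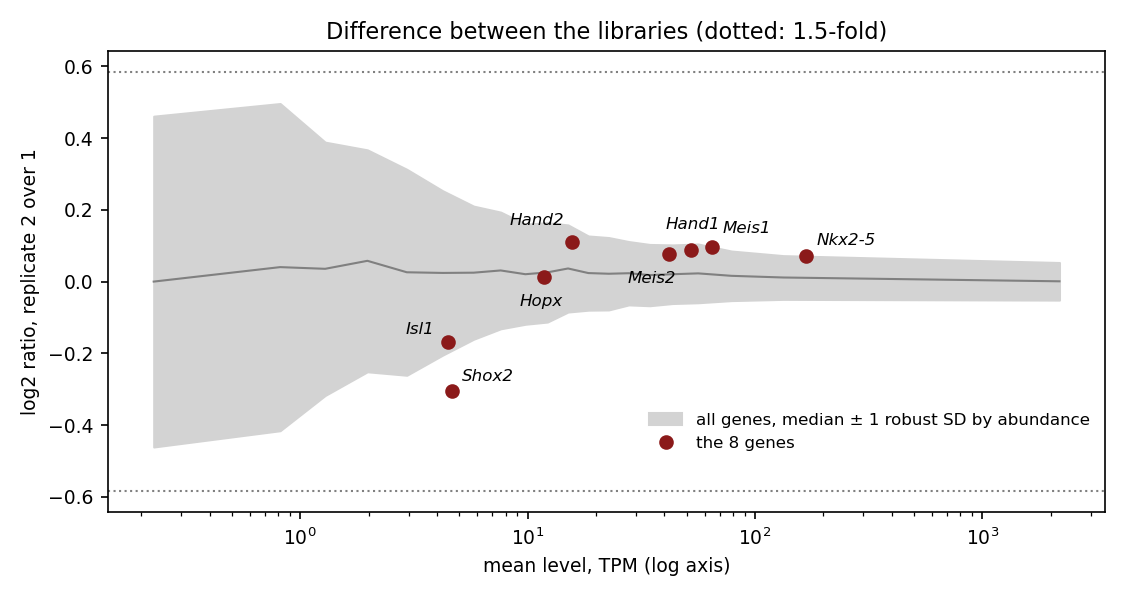
Log2 ratio of TPM, replicate 2 over replicate 1, against mean TPM on a log axis. Points are the 8 genes, the grey band is the median ± 1 robust SD of all genes with a mean of at least 20 reads in 20 bins of abundance, and dotted lines mark 1.5-fold. Shox2 at -0.3 lies just below the band, and all 8 points lie inside the dotted lines.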

How the data were processed

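Total RNA was measured by RNA-seq in 2 libraries of 1 group, with 1 gene and 1 transcript table each. Per the file headers, the authors used the mm10 assembly and GENCODE M4, with no aligner or quantifier named there. The authors deposited expected counts (estimated reads, not whole), TPM and FPKM, with posterior means and intervals whose level is not stated. The transcript tables also hold a percent of the gene for each model, per the file headers. The deposited TPM include spike-in controls.

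Genes and models were matched by identifier to GENCODE M21 (GRCm38, the same build) for names, positions and coding sequences. Of the 8 genes, 7 have an entry in the RefSeq promoter table. Gene levels were given per library with mean and SD. Detection needed 1 TPM in both libraries. Pair ratios used log2(TPM + 0.1), and a pair was called when both libraries kept the sign and the mean passed 3 standard errors, from the robust SD between libraries of genes in 20 bins of abundance. That standard error covers the spread between libraries only, not error in the length used for either gene. Model shares are shares of TPM. A segment was scored only on models whose exon boundaries decide it. Expected counts were rounded for the edgeR 4.0.16 and DESeq2 1.42.0 scaling factors. No p-value was computed, since 1 group allows no test. The labels name separate biosamples of pooled embryos, and 2 values give a rough SD. Depth was 33480066 and 30665239 reads in genes, where 3 reads equal 0.0896 and 0.0978 CPM, and this covers counting error only.

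Named were all 8 genes, the genes of 21 listed pairs, up to 4 of the highest genes of each of 20 lists, further detected genes of the other-tissue lists, genes within 10000 bases with 10 or more reads, and models with 5% or more. Other genes named, such as list members at or near 0 and the lowest of a list, were chosen after their values were seen. Some listed genes and pairs are not reported here. The 8 genes, pairs and lists were chosen with earlier results of these data known. The spread between libraries, the 1.5-fold rule and a simplified form of the pair rule were checked on simulated data. Model shares, segments and motif counts were not checked in that way. Calculations used Python 3.11.15 and R 4.3.3.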

Additional observations from a re-analysis of the deposited data

How the results depend on the processing

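The count of detected genes stayed at 8 at thresholds of 0.5 and 2 TPM, with any read, and in each library alone, and was 6 at 5 and at 10 TPM. Levels rose together when TPM was rescaled: the median of the 8 genes was 28.8 TPM as deposited, 31.4 with FPKM or TPM rescaled without spike-ins, and 35.6 over nuclear genes without mitochondrial and globin genes. It was 28.0 in replicate 1 and 29.7 in replicate 2. By CPM, without length, 6 of 8 genes kept their place in the order, as in replicate 2 alone, where Isl1 passed Shox2. The 18 called pairs stayed 18 under other pseudocounts, FPKM, counts per kilobase and posterior means, and were 17 in replicate 1 alone and 15 in replicate 2 alone, where the standard error is wider by construction. The uncalled ratio of Isl1 over Shox2 turned positive, to 0.0254 with posterior means and 0.0135 in replicate 2 alone, against -0.12 in replicate 1 alone. No gene passed 1.5-fold between libraries under TMM, DESeq2 or spike-in scaling or other pseudocounts, though Hopx changed sign, to -0.04, -0.03 and -0.05. The percent of all genes past 1.5-fold was 21.1 with no filter and 0.906 at 100 reads. The leading model was the same in both libraries for 6 of 8 genes by TPM share or the deposited percent, 7 by read share (Hopx no longer changed) and 5 by posterior means (Meis2 changed as well). These counts include Nkx2-5 and Hand2, which have 1 model each and could not change. Among genes at 10 TPM or more with more than 1 used model, 94.3% of 5983 kept the leader by TPM share. Of the 4 genes here in that set, 2 kept it. The others, Hand1 and Hopx, changed share by at most 5.67 and 11.5 points, under the 95th percentile of 14.7 points in that set. No paired analysis was possible because there is 1 group. Few reads limit what can be said of Isl1-202 and Shox2-201.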
